A study of Mus musculus with 2 samples.

Results

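The Krüppel-like factor (KLF) genes with a known part in fat cell formation were examined for differences in DNA methylation between PDGFRα+ and CD137+ adipose progenitors of C57BL/6 mice. The 10 genes were Klf2, Klf3, Klf4, Klf5, Klf6, Klf7, Klf9, Klf13, Klf14 and Klf15. A region counted for a gene when it overlapped, by at least 1 bp, the RefSeq gene body with 50 kb added on both sides, and 25 of the 34139 regions in the authors' list did so. The list rests on whole-genome bisulfite sequencing of 1 library of PDGFRα+ cells and 1 library of CD137+ cells. PDGFRα, also named CD140a, is a surface receptor of adipose progenitors, and CD137 is a receptor linked to beige precursors. Both populations were taken by magnetic sorting from subcutaneous (SAT) or visceral (VAT) fat, grown in culture and put into adipogenic medium, and both were given dexamethasone (DEX), a synthetic glucocorticoid. The labels do not say which depot either library came from, and no library without DEX was compared. The cell type of the libraries could not be checked against marker genes, because only DNA regions were measured.

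Each region carried a signed score given by the authors, with no level per library, no coverage and no stated direction. The list is named for the PDGFRα+ sample ahead of the CD137+ sample. Read in that order, a positive score would mean more methylation in PDGFRα+ cells, but the order is not defined, and the values are given here as positive or negative scores. With 1 library per population there was no replicate error, no p-value could be had for any region, and the depth behind a score is unknown. Each share is followed by its 95% Wilson interval, which covers counting error only. Neighbouring regions are not independent of each other.

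KLF proteins bind GC-rich and CACCC-type DNA through zinc fingers at their carboxyl end, and differ in the activators and repressors they recruit. In the differentiation of cultured preadipocytes they act in sequence around the C/EBP factors and Pparg, which encodes the nuclear receptor at the head of the fat cell programme. Some members drive that sequence and others hold it back. Klf9 and Klf15 are in addition known as genes induced by glucocorticoids. For comparison the members were classed as pro-adipogenic (Klf4, Klf5, Klf6, Klf9, Klf13 and Klf15) or anti-adipogenic (Klf2, Klf3 and Klf7). Klf14 was placed in neither class, since its link to fat rests mainly on human data.

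The regions at KLF genes were mostly positive, whereas the list as a whole was mostly negative. Of the 25 regions 17 were positive and 8 negative, a negative share of 32.0% (17.2 to 51.6). Among all 34139 regions the negative share was 67.4% (66.9 to 67.8), and among the 25416 regions within 50 kb of any protein-coding gene it was 67.0% (66.4 to 67.6). The 6 regions at Klf9 weighed on the KLF share, which was 21.1% without that gene. The share also depended on the window, and was 17.6% with 5 kb and 51.2% with 100 kb on both sides.

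Every member had at least 1 region, as did 68.5% of the 21887 protein-coding genes. Members with at least 1 positive region numbered 8 of 10, against 38.1% of protein-coding genes, and members with at least 1 negative region 5 of 10, against 58.6%. Positive regions outnumbered negative ones at 6 of 10 members, against 15.1% of protein-coding genes. Only positive regions were found at 5 members (Klf2, Klf3, Klf6, Klf7 and Klf13), a state shared by 9.91% of protein-coding genes. Only negative regions were found at 2 members (Klf5 and Klf14), against 30.4% of protein-coding genes. These shares take in protein-coding genes with no region. Of the 14991 protein-coding genes with a region, positive regions outnumbered negative ones at 3299. Only positive regions were found at 2168 of the 14991, and only negative ones at 6662. A gene held a median of 2 regions among the members (range 1 to 6) and 1 among all protein-coding genes (quartiles 0 and 3). Per Mb of window the medians were 15.4 for the members and 9.55 for protein-coding genes, with Klf4 (47.5) and Klf9 (47.3) the densest members and Klf5 (8.72) the sparsest.

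**Figure D1:**
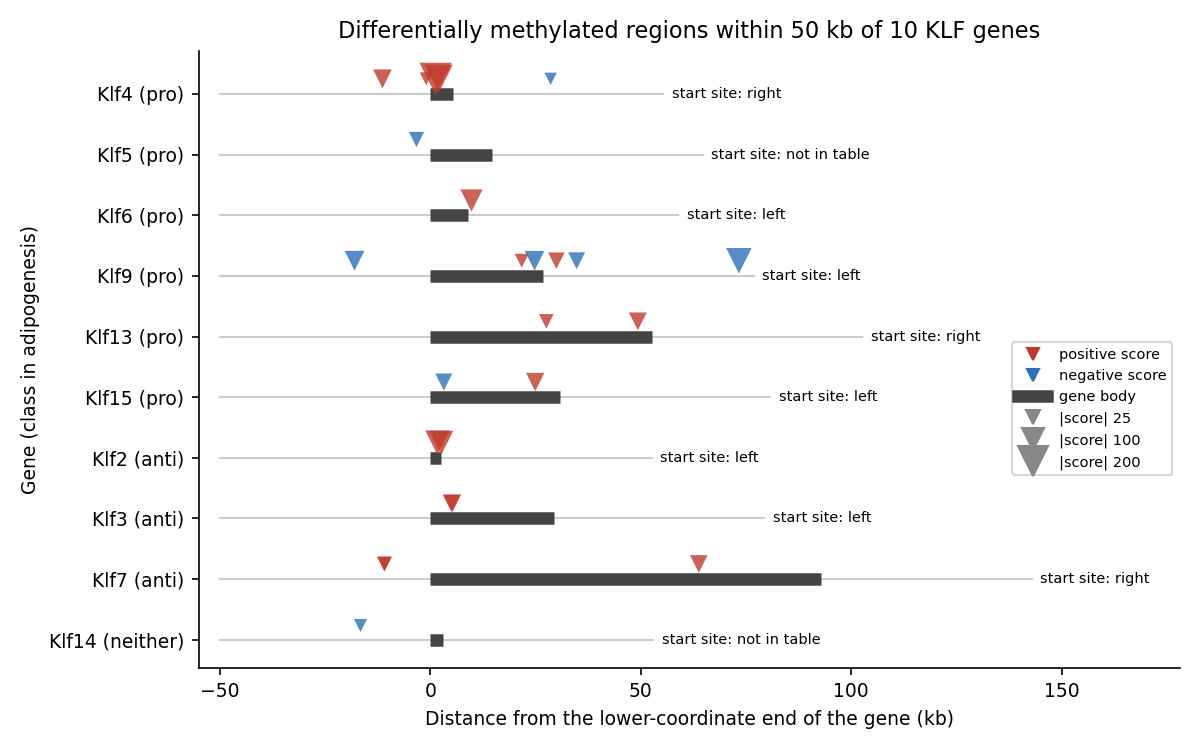
Position of the 25 regions around each KLF gene, with pro-adipogenic genes above anti-adipogenic ones. The horizontal axis is the distance in kb from the lower-coordinate end of the gene, dark bars are gene bodies, thin lines are the windows of 50 kb on both sides, and triangles are regions, coloured by sign and sized by absolute score. Red triangles gather on or next to the gene bodies of Klf4, Klf2, Klf3 and Klf13, while Klf9 carries both colours along its window.

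The sequence before the start site was read from RefSeq (GRCm38.p6) for the 8 members found in the promoter table. Klf5 and Klf14 were not found in it. The 250 bases before the start site are shown for 4 genes, chosen because Klf4 and Klf2 held the strongest positive regions, Klf9 had the most negative ones, and Klf3 had the most CACCC matches. Capitals mark CACCC or its reverse complement GGGTG.
Klf4 promoter, chr4:55532476-55532725, minus strand: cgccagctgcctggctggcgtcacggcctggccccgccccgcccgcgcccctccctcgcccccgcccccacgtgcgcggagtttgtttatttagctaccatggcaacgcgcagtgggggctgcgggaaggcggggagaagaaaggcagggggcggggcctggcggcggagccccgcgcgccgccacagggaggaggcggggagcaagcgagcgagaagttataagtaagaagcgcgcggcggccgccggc
Klf9 promoter, chr19:23140976-23141225, plus strand: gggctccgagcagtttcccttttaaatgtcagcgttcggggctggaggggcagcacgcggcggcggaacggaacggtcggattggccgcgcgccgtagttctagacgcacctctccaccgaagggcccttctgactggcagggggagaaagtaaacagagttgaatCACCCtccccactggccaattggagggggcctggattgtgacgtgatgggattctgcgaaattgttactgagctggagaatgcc
Klf2 promoter, chr8:72318812-72319061, plus strand: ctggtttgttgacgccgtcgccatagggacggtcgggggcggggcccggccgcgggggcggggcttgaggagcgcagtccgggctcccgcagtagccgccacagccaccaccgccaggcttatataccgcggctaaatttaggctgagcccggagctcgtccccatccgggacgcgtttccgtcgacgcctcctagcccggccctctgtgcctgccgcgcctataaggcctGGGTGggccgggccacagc
Klf3 promoter, chr5:64803271-64803520, plus strand: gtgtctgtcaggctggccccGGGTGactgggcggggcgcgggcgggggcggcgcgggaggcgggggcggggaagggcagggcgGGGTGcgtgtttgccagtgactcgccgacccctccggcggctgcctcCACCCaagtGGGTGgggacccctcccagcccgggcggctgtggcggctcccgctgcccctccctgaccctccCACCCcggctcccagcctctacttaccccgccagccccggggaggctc

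None of the 8 promoters overlapped a region (0 of 8), against 1.05% of the 32851 promoters listed for all genes. With so low a share, 0 of 8 is uninformative about KLF promoters. The KLF promoters were rich in CpG, the dinucleotide in which methylation is measured, with a median of 23.5 CpG in 250 bases (range 13 to 37) against a median of 6 over all promoters (quartiles 2 and 16). Klf15 had the most CpG (37) and Klf7 the fewest (13). Their median GC content was 71.4%, against 52.4% over all promoters. The background promoters belonged to 27025 genes, with several for some genes, and were not limited to protein-coding genes. CACCC was searched on both strands and was found in 6 of the 8 KLF promoters, against 52.0% of all promoters. Motif counts were not adjusted for GC content. Klf3 had 5 matches and Klf7 had 3, while Klf2, Klf9, Klf13 and Klf15 had 1 each and the letters were not found before Klf4 and Klf6. ACANNNTGT, a core of glucocorticoid receptor sites, and GGAATG, a core of TEAD sites, were found in 0 of the 8, against 5.84% and 12.6% of all promoters. At such low shares, 0 among 8 promoters is uninformative about either motif. No CACCC match overlapped another of these motifs. The regions of these 8 genes described below lay outside the promoter stretches, and the sequence of the regions themselves was not analysed here.

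Among the pro-adipogenic genes Klf4, whose product switches on Cebpb early in the differentiation of cultured mouse preadipocytes, held the strongest positive regions of the 10 members. Its 5 regions scored 66.3, 23.5, 224, 166 and -20.0 in order along chromosome 4, so that 4 were positive and the single negative one was the weakest. Both strong regions were inside the gene (chr4:55527137-55532475, minus strand). The first, chr4:55528161-55528642, was 482 bp wide, scored 224 and began 3.83 kb after the start site. The second, chr4:55529022-55529304, was 283 bp wide, scored 166 and began 3.17 kb after the start site, 379 bp from the first. Their scores stood at percentiles 97.4 and 94.6 of all positive regions. A positive region of score 100 or more inside the gene was found at 2 of 10 members (Klf4 and Klf2), against 3.56% of protein-coding genes. That share takes in genes with no region inside. Of the 6319 protein-coding genes with a region inside, 779 had such a region.

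The other regions at Klf4 were weaker and lay outside the gene. The positive regions of score 23.5 and 66.3 were 926 bp and 11.3 kb beyond its downstream end. The negative one was 23.2 kb upstream, within the noncoding gene Gm12506. No other protein-coding gene shared the Klf4 window.

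**Figure D2:**
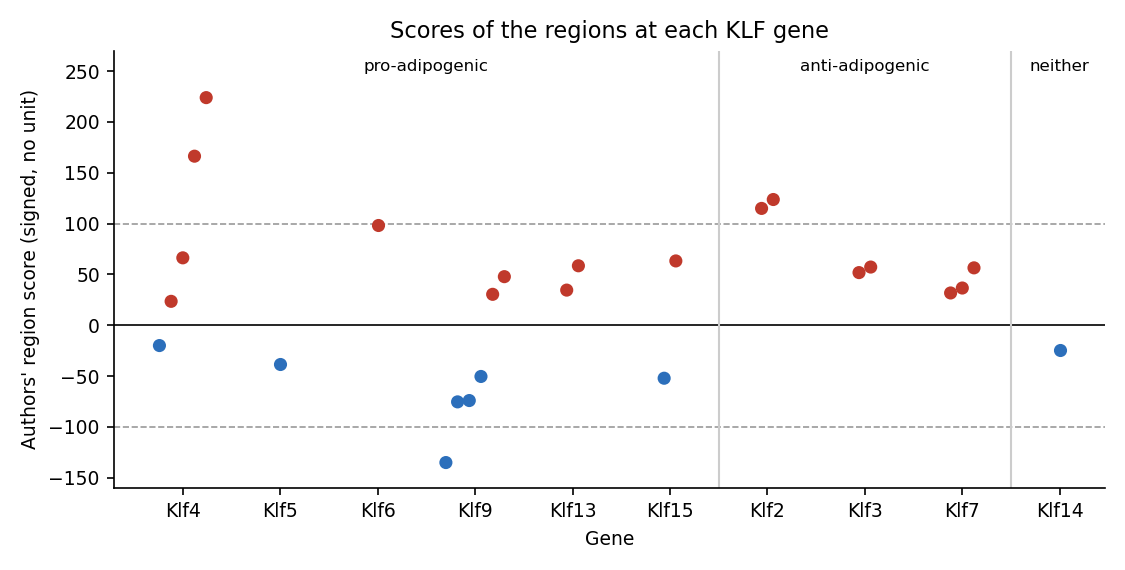
Authors' score of each region (vertical axis, signed, no unit) at each KLF gene (horizontal axis), pro-adipogenic genes on the left, then anti-adipogenic genes and Klf14. Each point is 1 region and the dashed lines mark an absolute score of 100. The 7 points of the anti-adipogenic genes all lie above 0, between 31.7 and 124, and the points of the pro-adipogenic genes run from -135 to 224.

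Klf9, whose product acts in the middle of adipogenesis and takes part in glucocorticoid responses, was the single member with more negative than positive regions among those with both signs. Its 6 regions scored -75.4, 30.4, -74.1, 47.8, -50.4 and -135 along chromosome 19, so the sign alternated over the first 5. Inside the gene (chr19:23141226-23168129, plus strand) a positive region of score 30.4 began 21.7 kb after the start site. A negative one of score -74.1 followed 3 kb further on. The negative region, chr19:23165979-23166039, was 61 bp wide, and its score per bp of 1.22 stood at percentile 98.6 of all regions. Beyond the downstream end of Klf9 came a positive region at 2.92 kb (score 47.8) and a negative one at 7.76 kb (score -50.4).

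The strongest region assigned to Klf9, chr19:23214358-23214705 (score -135), lay 46.2 kb downstream and inside Smc5, a gene of chromosome maintenance. It was the one region of the 25 that was nearer to another protein-coding gene than to the KLF gene. The remaining negative region of score -75.4 was 17.9 kb upstream of Klf9.

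Klf6, Klf13, Klf15 and Klf5 had 1 or 2 regions each, none of which reached an absolute score of 100. Klf6, whose product represses the preadipocyte gene Dlk1 in mouse cells, had 1 positive region of 169 bp and score 98.7 (chr13:5870990-5871158), 597 bp beyond its downstream end. Klf13, an early activator of adipogenesis in pig cells, had 2 positive regions inside the gene, which scored 58.5 and 34.5 and began 3.19 and 24.9 kb after the start site. Klf15, which raises the glucose transporter gene Slc2a4 in fat cells, had 1 region of each sign inside the gene. The negative one (chr6:90464198-90464328, score -52.2) began 1.62 kb after the start site and the positive one (score 63.2) 23.3 kb after it. That start site, from the promoter table, lies 1.53 kb inside the gene body used for the window. Klf5, which acts between the C/EBP factors and Pparg in mouse cells, had 1 negative region of score -38.5, located 3.26 kb below the lower-coordinate end of the gene.

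Every region at the anti-adipogenic genes was positive. Klf2, whose product represses the Pparg promoter and keeps preadipocytes undifferentiated, had 2 regions within and beside its short gene (chr8:72319062-72321654, plus strand). The first, chr8:72320704-72320884, was 181 bp wide, began 1.64 kb after the start site and scored 124. The second, chr8:72321687-72321768, was 82 bp wide, began 33 bp beyond the downstream end and scored 115. For their width these were high scores: the second had a score per bp of 1.40, at percentile 99.3 of all regions and the highest among the KLF regions, whose median was 0.465. The median over all regions was 0.430.

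Klf3, which with the corepressor CtBP represses Cebpa in mouse cells, had 2 positive regions inside the gene, of scores 51.8 and 57.2. They began 4.98 and 5.21 kb after the start site and were 179 bp apart. Both also lay in the overlapping protein-coding gene Gm38457, so they were no nearer to Klf3 than to that gene. Klf7, which holds back the differentiation of human preadipocytes, had 3 positive regions. One of score 56.4 was inside the gene, 28.1 kb after the start site of the promoter table (0.956 kb inside the gene body), and also in the noncoding gene Gm13748. A pair of scores 31.7 and 36.6, 68 bp apart, lay about 10.8 to 10.9 kb beyond the downstream end.

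Klf14, a gene linked to metabolic traits and to fat cell size in human studies, had 1 region. It was negative, scored -24.9, was 101 bp wide and lay 16.5 kb below the lower-coordinate end of the gene.

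**Figure D3:**
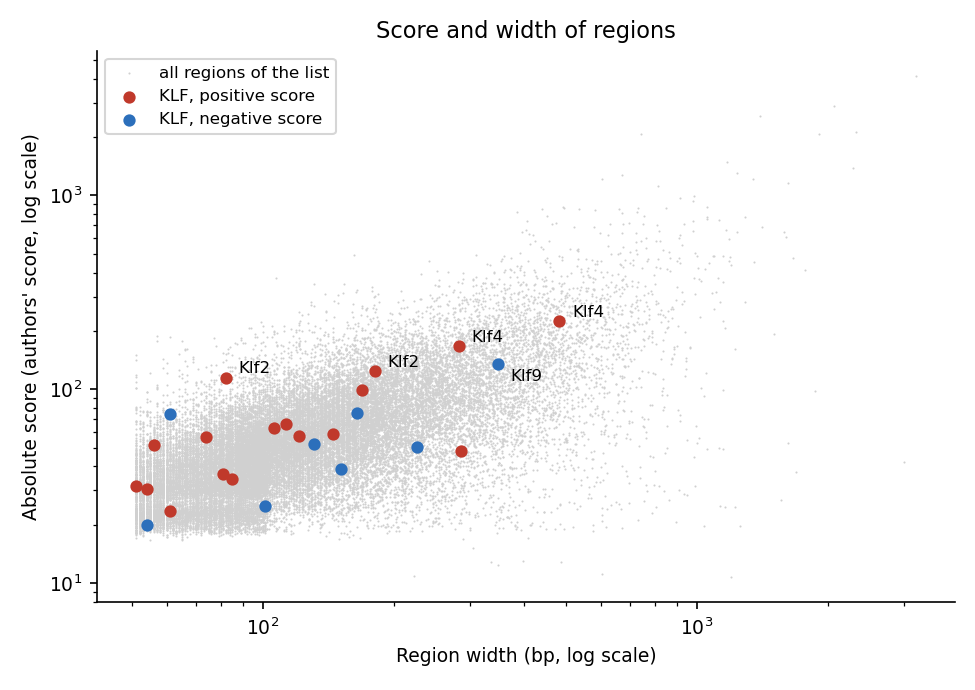
Absolute score (vertical axis, log scale) against region width in bp (horizontal axis, log scale) for all regions of the list (grey) and for the regions at KLF genes (red positive, blue negative). The labelled Klf4 regions sit at the wide end of the KLF set, at 482 and 283 bp, whereas the narrower labelled Klf2 region reaches 115 at 82 bp.

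Over the whole list the median absolute score was 34.3 for regions under 100 bp wide and 125 for those of 300 bp or more. Among the KLF regions the median width was 113 bp (range 51 to 482), against 112 bp over all regions (quartiles 80 and 182). Their median absolute score was 56.4, against 49.4 over all regions. An absolute score of 100 or more was reached by 5 of the 25 (20%), 2 each at Klf4 and Klf2 and 1 at Klf9, against 15.5% of all regions. By gene, 3 of 10 members had such a region within 50 kb, against 24.8% of protein-coding genes. That share takes in genes with no region.

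Set side by side, the pro-adipogenic genes held 10 positive and 7 negative regions and the anti-adipogenic genes 7 positive and 0 negative. Negative regions made up 41.2% (21.6 to 64.0) of the 17 at pro-adipogenic genes and 0% (0 to 35.4) of the 7 at anti-adipogenic genes. These intervals overlap, and the shares of both classes were below that of the whole list. The intervals treat each region as independent, although close pairs mostly share a sign. With close pairs counted once, 16 regions remained at the pro-adipogenic genes and 4 at the anti-adipogenic genes, with negative shares of 43.8% and 0%. By gene, 3 of 6 pro-adipogenic members had both signs (Klf4, Klf9 and Klf15), 2 had positive regions alone (Klf6 and Klf13) and 1 a negative region alone (Klf5). All 3 anti-adipogenic members had positive regions alone. The median absolute scores were 58.5 and 56.4. The difference in negative share of 41.2 percentage points was 27.3 without Klf9, and 25 with gene bodies alone and with 5 kb on both sides. With 100 kb on both sides 1 negative region joined the anti-adipogenic genes, at Klf7. The difference between the classes was not tested, since each population had 1 library.

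Most of the positive regions lay in the genes themselves or close by. Inside the gene bodies 10 of 12 regions were positive, a negative share of 16.7% (4.70 to 44.8), against 66.7% (66.0 to 67.3) for regions inside all protein-coding genes. Outside the gene but within 5 kb, 4 of 5 were positive. Between 5 and 50 kb the mix was different, with 3 positive and 5 negative regions and a negative share of 62.5% (30.6 to 86.3), against 68.8% for all protein-coding genes at that distance. Most of these negative regions were at Klf9 (scores -75.4, -50.4 and -135, the last inside Smc5). The others were weak, at Klf4 (-20.0) and Klf14 (-24.9), so this mix rests largely on a single gene. Between 50 and 100 kb, beyond the window used, 4 were positive and 14 negative, a negative share of 77.8% (54.8 to 91.0) against 67.9%. Over all protein-coding genes the share stayed between 66.2% and 68.8% across these distances. In these background shares a region counted once for each gene it belonged to, and their intervals ignore such repeats. Counted once each, the 17444 regions inside a protein-coding gene were 66.8% negative (66.1 to 67.5). A positive region inside the gene was found at 7 of 10 members, against 14.1% of protein-coding genes, and a negative region inside the gene at 2 of 10 (Klf9 and Klf15), against 23.0%. The background shares take in genes with no region inside. Of the 6319 protein-coding genes with a region inside, 3096 had a positive one and 5036 a negative one. Members with a region inside numbered 7, each with a positive one. The distances were divided in this way after the values were known.

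**Figure D4:**
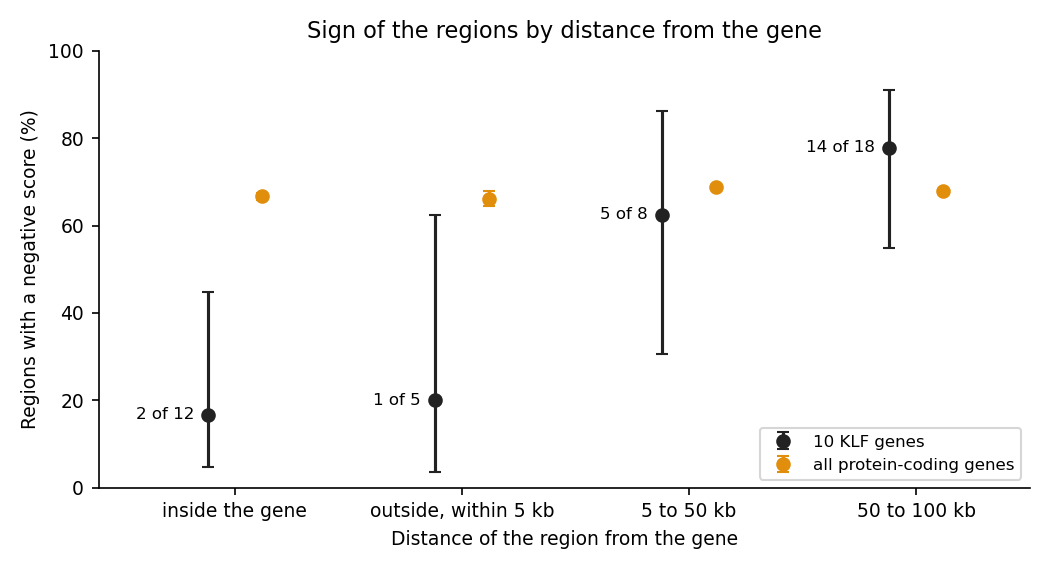
Share of regions with a negative score in percent (vertical axis) by distance of the region from the gene (horizontal axis) for the 10 KLF genes (black, with counts) and all protein-coding genes (orange). Bars are 95% Wilson intervals, which cover counting only. For all protein-coding genes a region counts once for each gene it belongs to. The KLF share is 16.7% inside the genes and 77.8% between 50 and 100 kb, while the share for all protein-coding genes lies between 66.2% and 68.8%.

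At the edge of the window, the farthest region counted was that at 46.2 kb from Klf9 (score -135), and the nearest one left out was 54.7 kb from Klf5 (score -42.3). The regions at 50 to 100 kb were few at any one gene apart from Klf9 and Klf13, with 5 each. Those of Klf9 were all negative (scores -21.8 to -113), and 4 of the 5 at Klf13 were negative. The strongest region at this distance was 62.9 kb from Klf4, with a score of -139.

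Of the 15 pairs of neighbouring regions at a KLF gene, 9 had the same sign and 6 had opposite signs. The 4 pairs less than 1 kb apart, at Klf4, Klf2, Klf3 and Klf7, were all pairs of positive regions. Of the 11 pairs farther apart, 5 had the same sign and 6 had opposite signs, among them those 3 to 5.01 kb apart at Klf9. In the list as a whole 94.5% of 2637 pairs within 1 kb had the same sign and 30.0% were pairs of positive regions. Counted once each, the close pairs left 21 regions, of which 38.1% were negative.

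At the other KLF and SP genes 21 regions were positive and 13 negative. Of these 16 genes 12 had a region within 50 kb, 5 with positive regions alone, 3 with negative regions alone and 4 with both. Of their 34 regions 38.2% were negative (23.9 to 55.0), with a median absolute score of 43.5. Klf12, a transcriptional repressor gene, had 11 regions inside the gene, 8 of them positive and none above a score of 66.9. Without Klf12 there were 13 positive and 10 negative regions. Sp2 had positive regions of scores 241 and 158, the first of them inside the gene and also in the window of its neighbour Sp6. Klf11 had 1 region, of score -146, outside the gene at 7.57 kb, in a window shared with Grhl1, Cys1 and Rrm2. Klf1, Klf8, Sp7 and Sp8 had none.

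The partners and targets of the adipogenic KLFs held 13 positive and 23 negative regions, and differed from gene to gene in sign. A region was found at 9 of 10 genes, and 63.9% (47.6 to 77.5) of their 36 regions were negative, with a median absolute score of 49.9. Cebpa and Cebpb, which are bound by KLF proteins, had 2 of 3 and 2 of 2 regions negative, while 6 of 7 at Pparg were positive (strongest 102). Of the CtBP genes that serve Klf3, Ctbp2 had 8 of 9 and Ctbp1 5 of 6 negative, the strongest with a score of -239 at 22.7 kb from Ctbp1. Slc2a4, the target of Klf15, had 1 positive region of score 220.5, outside the gene at 6.40 kb. Many other protein-coding genes shared the Slc2a4 window, among them Acap1, Neurl4, Gps2 and Eif5a. The gene nearest to that region was not determined. Hdac3 had no region.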

How the data were processed

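The single deposited file is the authors' list of differentially methylated regions between the PDGFRα+ and the CD137+ library, with chromosome, start, end and a signed score, without column names. Per the submitters' processing notes the positions are on mm10. The sources used here do not give the aligner, the region caller or the coverage. Within the list, the score deposited by the authors served to describe and rank regions. Starts were read as BED and are printed counting from 1. In the list 0 regions overlapped another and the narrowest was 51 bp. Genes were taken from RefSeq (GRCm38.p6, the assembly that mm10 names), whose table holds no exons or introns. Strand came from the promoter table for 8 members.

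Counting used Python 3.11.15, pandas 2.3.3, numpy 2.4.6 and scipy 1.17.1. The overlap counting was tested on simulated data. The members, classes and comparison lists were chosen with earlier results of these data known. All 10 members are named with every region inside or near the gene and the strongest of each sign. Of the comparison lists, genes with an absolute score of 100 or more are named. Klf12, Cebpa, Cebpb, Ctbp2 and genes with no region were named after their values were seen. The 15 alternatives covered window, score, width, overlap, nearest gene, class membership, weighting, close pairs and single members. Of these, 4 (close pairs counted once, and Klf4, Klf2 or Klf7 left out) were added after seeing the data.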

Additional observations from a re-analysis of the deposited data

How the results depend on the processing

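Over 15 alternatives, 114 of 133 values were classed as the same, 19 as moved and 0 as changed in sign. Counts were held to 1.5 times the main count and shares to the interval of the main share. The differences between the classes are neither, and all were classed as the same, at 25 to 50 percentage points against 41.2. Counts and shares cannot be negative, so only these differences could have changed sign. The negative share of the KLF regions ranged from 16.7% (gene bodies alone) to 51.2% (100 kb on both sides) over 12 alternatives, each below that of the whole list. The pro-adipogenic share exceeded the anti-adipogenic share by 25 to 50 percentage points over all 15. The anti-adipogenic share was 0% in all of them except 100 kb on both sides, where it was 11.1%. At 0% the difference is the pro-adipogenic share itself and could not turn the other way. The range is therefore no test of the contrast between the classes. The number of KLF regions was 12 with gene bodies alone, 43 with 100 kb, 15 at a width of at least 100 bp and 5 at an absolute score of 100 or more. The pro-adipogenic count was 8, 32 and 3 with gene bodies, 100 kb and the score minimum, and 11 without Klf9. The anti-adipogenic count was 4 with gene bodies, 4 without Klf7, 4 with close pairs counted once, and 2 with either minimum. Members with a negative region numbered 3 within 5 kb, 2 with gene bodies and 1 at the score minimum, where 3 members had any region and 2 a positive one. The counts moved as more or fewer bases, genes or regions were admitted. No paired analysis was possible because each population had 1 library. Depth is unknown, so a missing region and low coverage cannot be told apart.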
